A study of Mus musculus with 8 samples.

Results

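The genes described here are 10 prohormone-processing and granin genes of the regulated secretory pathway: Pcsk1, Pcsk2, Pcsk1n, Cpe, Scg2, Scg3, Scg5, Chga, Chgb and Vgf. They were measured in cultured, dissociated mouse hippocampal neurons labelled as carrying Flag-tagged Nr4a1 or, as the control, GFP. The members were found as every non-control probe whose accession maps through RefSeq to 1 of these symbols, which gave 13 of the 39429 probes on the array. All 13 probes passed the filter on dim signals, so the 10 genes stand among 21113 features tested, of which 15016 have a gene symbol.

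Pcsk1, which encodes a convertase that cleaves prohormones, was 1.94-fold higher on the Nr4a1-labelled arrays than on the GFP-labelled arrays and was higher in 4 of 4 pairs. Cpe, the carboxypeptidase that trims the cleaved peptides, was 1.42-fold higher as a ratio to the reference RNA. On its 2 brightest probes that difference lay mostly in the reference channel, and on its dimmest probe in the channel of the culture RNA. Scg3 and Scg5 were lower, by 1.2-fold and 1.17-fold, and each lost its call in 3 of the 4 fits that leave out a replicate. The other 6 genes, namely Pcsk2, Pcsk1n, Scg2, Chga, Chgb and Vgf, did not pass the test.

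Neuropeptides and peptide hormones are made as larger precursors that are sorted into dense-core vesicles. Inside the maturing vesicle, prohormone convertases cut the precursor after pairs of basic residues, and carboxypeptidase E removes the basic residues left at the ends. Granins are acidic proteins that are packed with the peptides, help to form the vesicle and are themselves cut into peptides. Hippocampal neurons use this pathway for neuropeptides and neurotrophins, and transcription of several of its genes is known to respond to neuronal activity and cAMP. Nr4a1, also called NGFI-B or Nur77, is an orphan nuclear receptor and an activity-induced transcription factor.

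Agilent arrays with 2 colours were used, 4 labelled Flag-Nr4a1 and 4 labelled GFP. The lentivirus that brought the transgene was added after 10 days in culture, and RNA was taken 6 days later. Each array carried the culture's RNA in Cy5 and a commercial mouse reference RNA, the same for all arrays, in Cy3, with no dye swap. The labels join the arrays into 4 pairs of 1 Nr4a1-labelled and 1 GFP-labelled array, and batch 2 holds replicate 4 alone. The mouse strain and age, the promoter of the transgene and the share of cells that carried it are not given in the sources used here.

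Median signals of the arrays ran from 137 to 194 in Cy5 and from 141.5 to 154 in Cy3, over backgrounds of 29 to 32. Between 60.9% and 69.2% of spots passed the software's background test in Cy5, and none was saturated. Nr4a1-labelled replicates 1 to 3 lay on slide 2 and replicate 4 on slide 3, and the 4 GFP-labelled arrays lay on slide 1, so slide and transgene cannot be told apart. The probe for Nr4a1 itself did not separate the groups. Its log2 ratio was -1.32, -2.49, -1.2 and -2.37 on the Nr4a1-labelled arrays of replicates 1 to 4, and -2.06, -2.12, -1.90 and -2.49 on the GFP-labelled arrays. The difference was 0.30 ± 0.15 (adjusted p = 0.196), with 3 of 4 pairs higher. The position of that probe relative to the transgene was not examined here. The pan-neuronal markers had mean log2 ratios of 4.35 to 4.53 on the Nr4a1-labelled and 4.44 to 4.56 on the GFP-labelled arrays, with all 12 detected.

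Promoter sequences are shown for the genes with a cAMP response element, the palindrome TGACGTCA bound by CREB, because activity is known to act on genes of this pathway through that element. Cpe and Vgf have no promoter in the RefSeq table of GRCm38.p6 and were not searched. Of the 8 members with a promoter there, 3 hold the palindrome between 250 bases before and 50 bases after the start. They are Pcsk1, Scg2 and Chgb. Of all 32851 promoters of the table, 588 hold it (1.79%). The 150 bases before the start are printed 5′ to 3′ on the strand of the gene, with the element in capitals. The 4 windows lie at chr13:75089707-75089856 on the plus strand for Pcsk1, chr1:79440027-79440176 on the minus strand for Scg2, chr2:132781492-132781641 on the plus strand for Chgb and chr12:102554791-102554940 on the plus strand for Chga. The promoter of Chga is shown beside them for the core letters TGACG outside the palindrome.
Pcsk1: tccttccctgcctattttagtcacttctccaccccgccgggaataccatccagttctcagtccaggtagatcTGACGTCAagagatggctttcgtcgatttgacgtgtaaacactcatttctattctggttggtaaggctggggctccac
Scg2: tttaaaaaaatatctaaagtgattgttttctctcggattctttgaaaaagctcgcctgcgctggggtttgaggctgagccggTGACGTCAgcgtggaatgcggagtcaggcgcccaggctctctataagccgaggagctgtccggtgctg
Chgb: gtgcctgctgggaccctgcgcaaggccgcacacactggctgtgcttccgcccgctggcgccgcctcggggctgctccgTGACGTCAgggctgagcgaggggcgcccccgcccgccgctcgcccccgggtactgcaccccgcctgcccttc
Chga: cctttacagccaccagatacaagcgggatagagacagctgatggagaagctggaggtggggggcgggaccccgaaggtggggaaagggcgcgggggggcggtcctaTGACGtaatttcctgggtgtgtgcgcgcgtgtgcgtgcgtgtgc
The palindrome starts 78 bases before the start in Pcsk1, 68 bases before it in Scg2 and 72 bases before it in Chgb. The core TGACG, which is also counted where it lies inside the palindrome, was found on either strand in 7 of the 8 members and in 20.8% of all promoters. Pcsk1 holds a further core 50 bases before the start, and the core of Chga lies 44 bases before it. The NGFI-B response element AAAGGTCA, the site that Nr4a1 binds as a monomer, was searched on both strands too. It was found in 0 of the 8 members and in 1.51% of all promoters, which says only that these letters are not in these windows.

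A gene was called changed where the adjusted p of the paired limma fit was under 0.05. By that rule 24.4% of all features were called, 12.8% higher and 11.5% lower on the Nr4a1-labelled arrays. Of the 10 members 4 were called, 2 higher and 2 lower. Their median difference was -0.093 on the log2 scale, against -0.0034 over all features. The groups did not overlap in 3 members, Pcsk1, Cpe and Scg3, and in 24.3% of all features. In RNA from whole cultures, fewer cells of a type and less RNA per cell cannot be told apart.

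**Figure D1:**
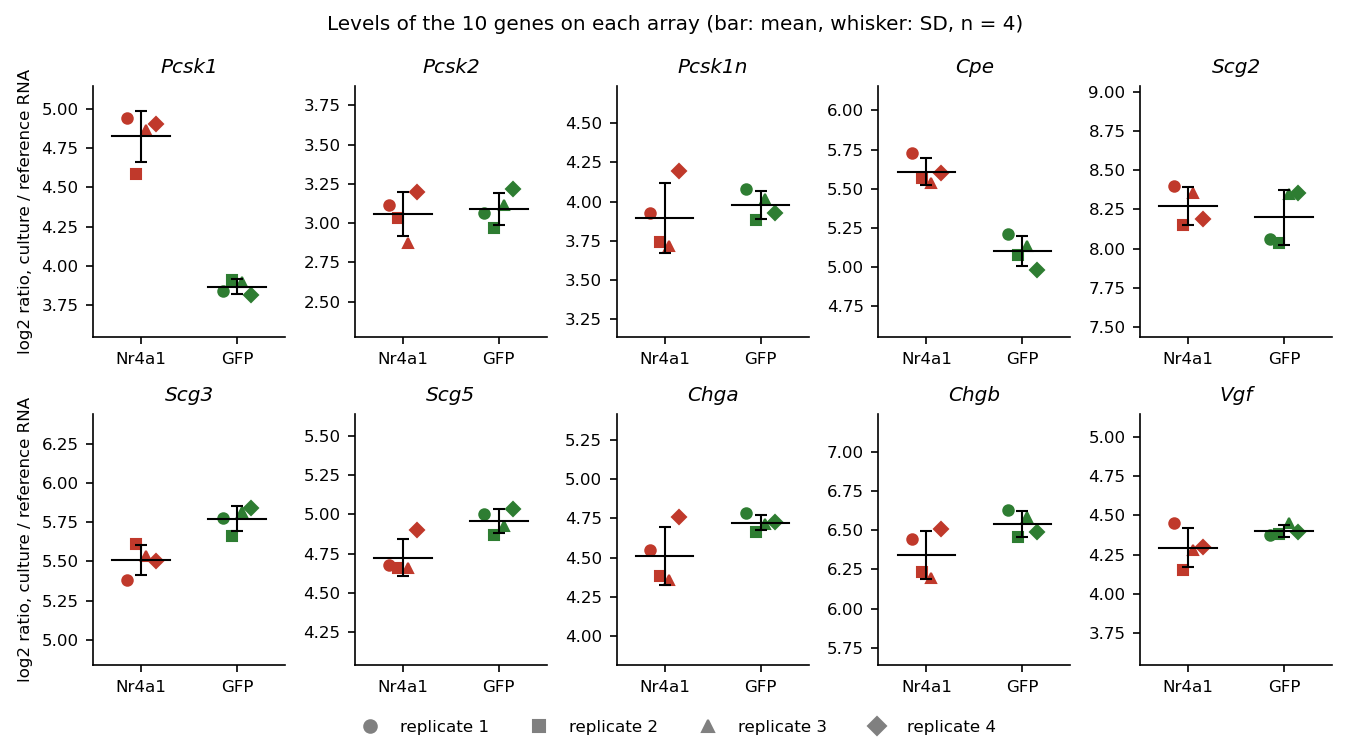
Log2 ratio of culture RNA over reference RNA for each of the 10 genes on every array, Nr4a1-labelled arrays in red on the left and GFP-labelled arrays in green on the right, with the mean and SD of 4 arrays. Every panel spans the same number of log2 units. Pcsk1 lies at 4.59 to 4.94 on the Nr4a1-labelled arrays, above 3.82 to 3.91 on the GFP-labelled arrays, while the 2 groups of most other genes lie close together.

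Of the convertases, Pcsk1 (PC1/3) cleaves precursors early, in the immature vesicle, and is known to act on proopiomelanocortin, proinsulin and other precursors. Its log2 ratio to the reference was 4.94, 4.59, 4.86 and 4.91 on the Nr4a1-labelled arrays of replicates 1 to 4, and 3.84, 3.91, 3.90 and 3.82 on the GFP-labelled arrays. Every Nr4a1-labelled array was higher than every GFP-labelled array, with replicate 2 the lowest of its group. The mean was 4.82 ± 0.16 on the Nr4a1-labelled and 3.87 ± 0.05 on the GFP-labelled arrays (SD, n = 4 each), and the difference was 0.96 ± 0.08 (SE, adjusted p = 2.56e-05). Within pairs the difference was 1.1, 0.67, 0.97 and 1.09. Only 0.867% of all features lay at least as far from 0.

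The reference RNA held little Pcsk1, since Cy3 was well above background on 0 of 8 arrays, so the size of its ratio rests on the Cy5 signal and on the offset added to dim signals. The median Cy5 signal of the spot, before correction, was 2592.5, 2156.5, 2783 and 1973 on the Nr4a1-labelled arrays, against 907, 1098.5, 972 and 858 on the GFP-labelled arrays. Every Nr4a1-labelled array was again above every GFP-labelled array. With Cy5 normalised alone the difference was 1.13 (adjusted p = 1.76e-05 over all probes), where 28.8% of all probes were called. The dim Cy3 signal alone also differed, by 0.17 (adjusted p = 0.03455), and was higher in 4 of 4 pairs. In Cy3 alone 12.3% of all probes were called. With an offset of 10 in place of 50 the ratio difference was 0.76 (adjusted p = 0.00280). With the software's own log ratio it was 0.36 (adjusted p = 0.133), and with every spot kept in the background correction it was 0.27 (adjusted p = 0.826). Leaving out any single pair gave differences of 0.91 to 1.05, all of them called.

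Pcsk2 (PC2), the convertase that acts later on many of the same precursors, was measured by 2 probes. The brighter one had log2 ratios of 3.12, 3.03, 2.87 and 3.20 on the Nr4a1-labelled arrays and 3.06, 2.97, 3.11 and 3.22 on the GFP-labelled arrays. The groups overlapped, and the difference was -0.04 ± 0.07 (adjusted p = 0.750). The second probe had 6.37, 6.08, 6.20 and 6.60 on the Nr4a1-labelled arrays and 6.36, 6.08, 6.22 and 5.77 on the GFP-labelled arrays. Replicates 1 to 3 of that probe differed by at most 0.016, and replicate 4 alone differed by 0.82. Its fitted difference was 0.21 ± 0.13 (adjusted p = 0.266), and its Cy3 signal was well above background on 0 of 8 arrays.

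Pcsk1n encodes proSAAS, a granin-like protein known as an inhibitor of PC1/3. Its log2 ratio was 3.93, 3.74, 3.72 and 4.20 on the Nr4a1-labelled arrays and 4.08, 3.88, 4.02 and 3.92 on the GFP-labelled arrays. It was lower in replicates 1 to 3 and higher in replicate 4, and the fitted difference was -0.08 ± 0.09 (adjusted p = 0.540). Cy5 alone gave 0.23 (adjusted p = 0.0436) and Cy3 alone gave 0.30 (adjusted p = 0.0379), so both channels of this probe were higher on the Nr4a1-labelled arrays while their ratio did not pass the test.

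Scg5 encodes 7B2, a chaperone that Pcsk2 needs for its maturation and whose tail inhibits the enzyme. The log2 ratio was 4.68, 4.66, 4.66 and 4.90 on the Nr4a1-labelled arrays and 5.00, 4.87, 4.92 and 5.04 on the GFP-labelled arrays. All 4 pairs were lower, although replicate 4 of the Nr4a1-labelled arrays lay above replicate 2 of the GFP-labelled arrays. The difference was -0.23 ± 0.06 (adjusted p = 0.0188), or 1.17-fold lower. Without replicate 1, 2 or 3 it was -0.20, -0.24 and -0.22, with adjusted p of 0.0762, 0.0640 and 0.0530. Without replicate 4 it was -0.26 (adjusted p = 0.0282). With Cy5 alone it was -0.15 (adjusted p = 0.161).

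**Figure D2:**
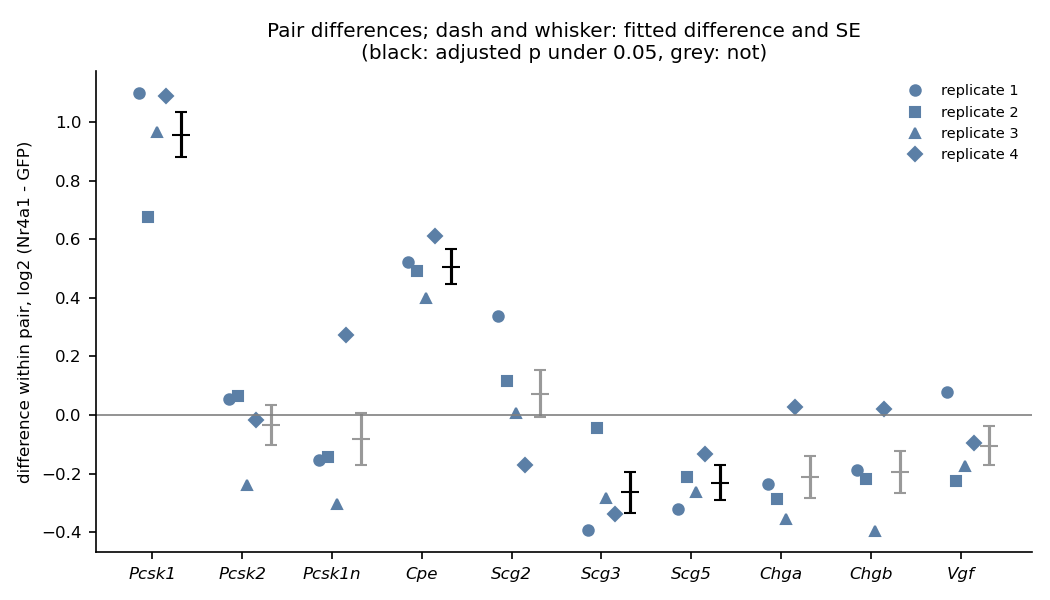
Difference in log2 ratio, Nr4a1-labelled minus GFP-labelled array, within each of the 4 pairs of every gene, with the fitted difference and its SE beside the points (black where the adjusted p is under 0.05, grey where it is not). The 4 Pcsk1 points lie between 0.67 and 1.1 and the 4 Cpe points between 0.40 and 0.61, and Scg3 and Scg5 lie below 0 in all 4 pairs.

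Carboxypeptidase E, encoded by Cpe, removes the C-terminal basic residues that the convertases expose. It was measured by 3 probes, and the brightest had log2 ratios of 5.73, 5.57, 5.53 and 5.60 on the Nr4a1-labelled arrays and 5.21, 5.08, 5.13 and 4.99 on the GFP-labelled arrays. The groups did not overlap. The difference was 0.51 ± 0.06 (adjusted p = 0.000267), with all 4 pairs higher by 0.40 to 0.61. The other probes gave 0.38 ± 0.06 (adjusted p = 0.00122) and 0.22 ± 0.06 (adjusted p = 0.0310) in the fit over all probes, where 6 of the 13 member probes and 23.8% of all probes were called. All 3 probes thus pointed the same way.

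The channels of the Cpe probes did not behave alike. The median Cy5 signal of the brightest probe was 405276, 411101, 400696 and 336397 on the Nr4a1-labelled arrays, against 315979, 366305, 372191 and 339061 on the GFP-labelled arrays. These values overlapped, and the normalised Cy5 signal differed by 0.11 (adjusted p = 0.209). The Cy3 signal of the same probe was 7118, 7542, 6527.5 and 8818.5 on the Nr4a1-labelled arrays, against 9588, 9534.5, 11579.5 and 12267 on the GFP-labelled arrays. Every Nr4a1-labelled array was thus lower in the channel that holds the common reference RNA, and the normalised Cy3 difference was -0.53 (adjusted p = 0.0330). The second probe gave -0.02 (adjusted p = 0.839) in Cy5 and -0.53 (adjusted p = 0.0356) in Cy3. The dimmest of the 3 gave 0.29 (adjusted p = 0.0218) in Cy5 and 0.05 (adjusted p = 0.554) in Cy3. In Cy5 alone the dimmest probe was the only 1 of the 3 that was called. Over all probes, 12.3% were called in Cy3 alone.

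**Figure D3:**
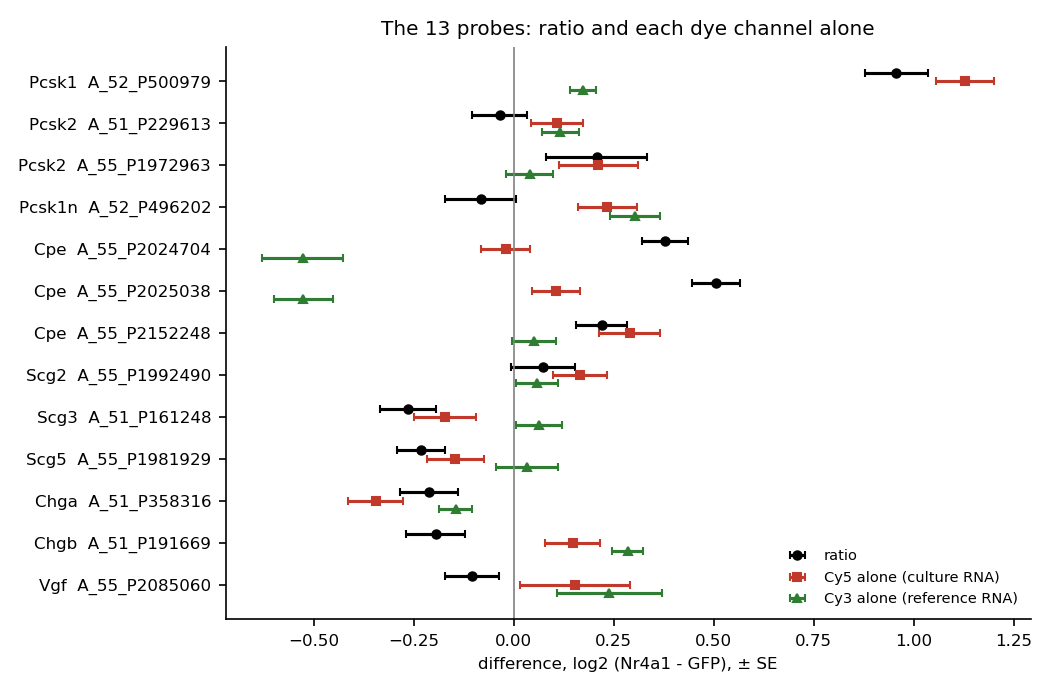
Difference on the log2 scale, Nr4a1-labelled minus GFP-labelled arrays, with its SE, for each of the 13 probes as the ratio (black circles) and as the Cy5 channel (red squares) or Cy3 channel (green triangles) normalised alone. Pcsk1 is at 0.96 as a ratio and 1.13 in Cy5, whereas 2 Cpe probes are near 0 in Cy5 and at -0.53 in Cy3, the channel of the common reference RNA.

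Among the granins, Scg3 (secretogranin III) is known to bind cholesterol-rich vesicle membrane and chromogranin A. Its log2 ratio was 5.38, 5.61, 5.53 and 5.50 on the Nr4a1-labelled arrays and 5.77, 5.66, 5.82 and 5.84 on the GFP-labelled arrays. The groups did not overlap, though replicate 2 differed by only -0.05 within its pair. The difference was -0.26 ± 0.07 (adjusted p = 0.0211), or 1.2-fold lower. Without replicate 1, 3 or 4 it was -0.22, -0.26 and -0.24, with adjusted p of 0.0937, 0.0549 and 0.0790. Without replicate 2 it was -0.34 (adjusted p = 0.0113), and with Cy5 alone it was -0.17 (adjusted p = 0.127).

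Chga (chromogranin A) helps to drive the formation of dense-core granules. Its log2 ratio was 4.55, 4.38, 4.36 and 4.76 on the Nr4a1-labelled arrays and 4.78, 4.67, 4.71 and 4.73 on the GFP-labelled arrays. It was lower in replicates 1 to 3 and 0.03 higher in replicate 4, and the difference of -0.21 ± 0.07 missed the threshold (adjusted p = 0.0574). Without replicate 4 it was -0.29 (adjusted p = 0.0198). Cy5 alone gave -0.34 (adjusted p = 0.00676), lower in 4 of 4 pairs.

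Chgb (chromogranin B), which shares the granule cores with Chga, was printed as 10 spots on each array. Its log2 ratio was 6.44, 6.23, 6.19 and 6.51 on the Nr4a1-labelled arrays and 6.63, 6.45, 6.59 and 6.49 on the GFP-labelled arrays. The SD over the 10 spots of an array, which measures spotting error within an array only, was 0.0544 to 0.0893 on unnormalised log2 ratios. The pairs ran as in Chga, with -0.19, -0.22, -0.39 and 0.02, and the difference was -0.20 ± 0.07 (adjusted p = 0.0790). Without replicate 4 it was -0.27 (adjusted p = 0.0367). In Cy5 alone the sign turned, to 0.15 (adjusted p = 0.144), while Cy3 alone gave 0.29 (adjusted p = 0.0330).

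Scg2 (secretogranin II) is the precursor of secretoneurin and carries the same palindrome in its promoter as Pcsk1. Its log2 ratio was 8.40, 8.15, 8.36 and 8.19 on the Nr4a1-labelled arrays and 8.06, 8.03, 8.35 and 8.36 on the GFP-labelled arrays. The groups overlapped, with pair differences of 0.34, 0.12, 0.01 and -0.17. The difference was 0.07 ± 0.08 (adjusted p = 0.556), and the Cy3 signal was well above background on 1 of 8 arrays.

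Vgf, a neurotrophin-induced granin whose peptides are known to act on synapses and energy balance, had log2 ratios of 4.45, 4.15, 4.28 and 4.30 on the Nr4a1-labelled arrays and 4.37, 4.38, 4.45 and 4.40 on the GFP-labelled arrays. The groups overlapped, and the difference was -0.10 ± 0.07 (adjusted p = 0.291). The spread was 0.12 over the Nr4a1-labelled arrays and 0.04 over the GFP-labelled arrays (SD, n = 4 each).

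Pcsk1, Scg2, Chgb and Vgf were set beside a list of immediate early genes, such as Arc and Fos, which activity induces in neurons. The list also holds other activity-regulated genes, Dusp6 and Nptx2 among them. Of 13 genes of that list tested, 8 were called higher and 0 lower, with a median difference of 0.65. Over all features, 12.8% were called higher and 11.5% lower. Without replicate 1, 2, 3 or 4 the number called higher was 3, 11, 5 and 7. It was 4 without the pair block, 5 with batch as the block and 2 with the software's log ratio. It was 0 with slide as a random block or with all spots in the background correction. Over all 21113 features, the slide block called 8 higher and 4 lower, and keeping all spots called 130 and 98. Arc, which encodes an activity-regulated synaptic protein, had log2 ratios of 3.55, 1.52, 3.88 and 1.82 on the Nr4a1-labelled arrays and 1.42, 1.37, 1.47 and 1.14 on the GFP-labelled arrays. Replicates 1 and 3 were thus far above replicates 2 and 4. Fos ran likewise, with pair differences of 1.73, -0.29, 1.94 and 0.09, and did not pass the test (adjusted p = 0.0743). Dusp6, a phosphatase of ERK, and Fosl2, a Fos family member, were higher by 0.88 and 0.78 (adjusted p = 0.000134 and 0.00272). The Dusp6 differences were 1.23, 0.76, 0.59 and 0.93 in replicates 1 to 4, without the split seen in Arc and Fos.

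In each of the 4 members the log2 ratio differences of replicates 1 and 3 overlapped those of replicates 2 and 4. Pcsk1 differed by 1.1 and 0.97 in replicates 1 and 3 and by 0.67 and 1.09 in replicates 2 and 4. Scg2 differed by 0.34 and 0.01 in replicates 1 and 3, Chgb by -0.19 and -0.39, and Vgf by 0.08 and -0.17. On the Nr4a1-labelled arrays the uncorrected Cy5 signal of all 4 members was higher in replicates 1 and 3 than in 2 and 4. For Pcsk1 it was 2592.5 and 2783 against 2156.5 and 1973. For Scg2 it was 41273 and 43075.5 against 35463 and 27816.5. For Chgb it was 149147.1 and 149249.8 against 133554.8 and 106502.4. For Vgf it was 78652 and 84569 against 50176.5 and 47262. On the GFP-labelled arrays these replicates overlapped in all 4 members. The Vgf signal there was 48320.5 and 60330.5 in replicates 1 and 3, and 68671 and 37660 in replicates 2 and 4. Whether these members follow the immediate early genes was not tested. Without replicate 1 the Pcsk1 difference was 0.91, and without replicate 3 it was 0.95.

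**Figure D4:**
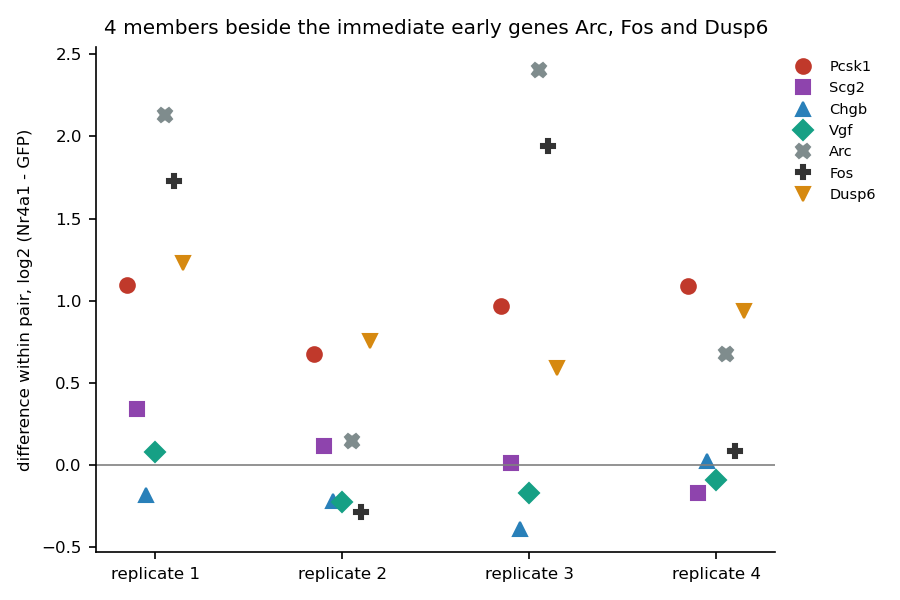
Difference in log2 ratio within each pair, Nr4a1-labelled minus GFP-labelled array, for Pcsk1, Scg2, Chgb and Vgf and for Arc, Fos and Dusp6 from the list of immediate early genes. Arc reaches 2.13 and 2.41 in replicates 1 and 3 but 0.14 and 0.68 in replicates 2 and 4, whereas Pcsk1 lies between 0.67 and 1.1 and Dusp6 between 0.59 and 1.23 in all 4.

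Among the genes with a symbol outside the members, those whose 4 pair differences lay close to those of Pcsk1 included Hunk, Asic4, Ms4a10 and Shh. The root mean square distance over the 4 pairs was 0.080 for Hunk, 0.097 for Asic4, 0.11 for Ms4a10 and 0.13 for Shh. The differences of these 4 genes lay between 0.91 and 0.96, which follows from how they were picked. Each had groups that did not overlap, as did 24.3% of all features. Shh, like Pcsk1, had Cy3 well above background on 0 of 8 arrays.

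The rest of the pathway was described from lists of genes by role. Each count stands beside 12.8% of all features called higher and 11.5% called lower. Among the 7 other proprotein convertases, 1 was called higher, 1 lower and 5 were not called. Pcsk6 (PACE4), a secreted convertase that activates growth factors, was 1.4-fold lower (-0.49 ± 0.06, adjusted p = 0.000411). Pcsk4, known from germ cells, was 1.2-fold higher (0.27 ± 0.07, adjusted p = 0.0198). Furin, the housekeeping convertase of the Golgi, was among those not called.

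Of 12 measured enzymes that trim or modify peptides, 0 were called higher, 5 lower and 7 were not called, with a median of -0.097. Qpct, which forms the pyroglutamate end of some peptides, fell by 0.30 (adjusted p = 0.00986), and Pam, which amidates peptides, fell by 0.37 (adjusted p = 0.0112). Pam had log2 ratios of 0.10, 0.58, 0.57 and 0.17 on the Nr4a1-labelled arrays and 0.74, 0.91, 0.65 and 0.60 on the GFP-labelled arrays. The number of enzymes called lower was 4, 1, 2 and 3 without replicate 1, 2, 3 and 4, and 0 with slide as a random block or with all spots in the background correction.

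Of 28 measured genes of dense-core vesicle formation and release, 2 were called higher, 11 lower and 15 were not called, with a median of -0.15. The 12 pan-neuronal markers had a median of -0.15 too. Rab27b, a GTPase that docks secretory vesicles, had log2 ratios of 2.12, 2.08, 1.81 and 1.97 on the Nr4a1-labelled arrays and 2.63, 2.74, 2.86 and 2.69 on the GFP-labelled arrays. It fell by 0.74 (adjusted p = 0.000195), and Rab26, another vesicle GTPase, fell by 0.71 (adjusted p = 5.14e-05). The 2 called higher were Cadps2, a priming factor of dense-core vesicles (0.56, adjusted p = 0.00153), and Sytl4, the Rab27 effector granuphilin (0.27, adjusted p = 0.0309). Sytl4 was well above background on 5 of 8 arrays in Cy5 and 0 of 8 in Cy3, and with a filter that requires all 8 arrays 1 gene of the list was called higher. Leaving out each replicate in turn gave 9 to 10 genes called lower. On Cy5 alone 4 were called higher and 11 lower, beside 3195 and 2898 of all 21113 features. The counts of the list were 0 higher and 4 lower with the software's log ratio. They were 0 and 0 with slide as a random block or with all spots in the background correction. Those settings called 8 and 130 of all 21113 features higher, and 4 and 98 lower, in that order.

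Of 25 measured precursors that the pathway can process, 4 were called higher, 6 lower and 15 were not called, with a median of -0.051. Nmb, the precursor of neuromedin B, was 3.99-fold higher, at 6.26 ± 0.09 on the Nr4a1-labelled and 4.27 ± 0.09 on the GFP-labelled arrays (SD, n = 4 each, adjusted p = 3.20e-08). Grp, the precursor of gastrin-releasing peptide, was 9.87-fold lower, at 1.99 ± 0.19 on the Nr4a1-labelled and 5.29 ± 0.20 on the GFP-labelled arrays (adjusted p = 3.36e-08). With slide as a random block, 1 precursor was called higher and 1 lower, beside 8 features higher and 4 lower of all 21113.

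Markers of other cell types were read beside these genes, and their part in the differences was not tested. Their counts stand beside 12.8% of all features called higher and 11.5% called lower. Of 10 markers of the oligodendrocyte lineage, 5 were called higher and 2 lower, and their mean log2 ratio was 1.18 to 1.22 on the Nr4a1-labelled and 0.90 to 1.06 on the GFP-labelled arrays. Of 12 astrocyte markers, 3 were called higher and 1 lower, at 3.52 to 3.63 on the Nr4a1-labelled and 3.43 to 3.55 on the GFP-labelled arrays. Of 8 markers of GABAergic interneurons, which are rich in neuropeptides, 2 were called higher and 0 lower, at 2.39 to 2.46 on the Nr4a1-labelled and 2.25 to 2.49 on the GFP-labelled arrays. Of 12 pan-neuronal markers, 1 was called higher and 2 lower, with a median difference of -0.15. Microglia had 5 tested markers, 0 higher and 1 lower, with C1qc and P2ry12 below background on all arrays. The 5 tested endothelial and mural markers had none called, with Cdh5 below background on all arrays, and the 5 fibroblast markers had 0 higher and 2 lower. Of 8 endocrine markers, 5 were tested, 3 were called higher and 1 lower, and Gcg was below background on all arrays.

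How far each difference depends on the processing is drawn for all 10 genes. The Pcsk1 difference stayed above 0 under all 16 other settings and kept its call in 13 of them. With the slide entered as a random block next to the pair term it was 0.99 ± 0.31 with an adjusted p of 1. The consensus correlation within a slide was 0.862. No member was called under that setting, beside 8 features called higher and 4 lower of all 21113. Cpe kept its call in 13 of the 16 settings, Scg5 in 8 and Scg3 in 7. Leaving out the replicate block, taking batch as the block or changing the filter left every member's difference as it was. Those settings bear on the calls only, and the mean over probes likewise left Pcsk1 at 0.96. Pcsk1 lost its call with the slide block, the software's log ratio and all spots in the background correction.

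**Figure D5:**
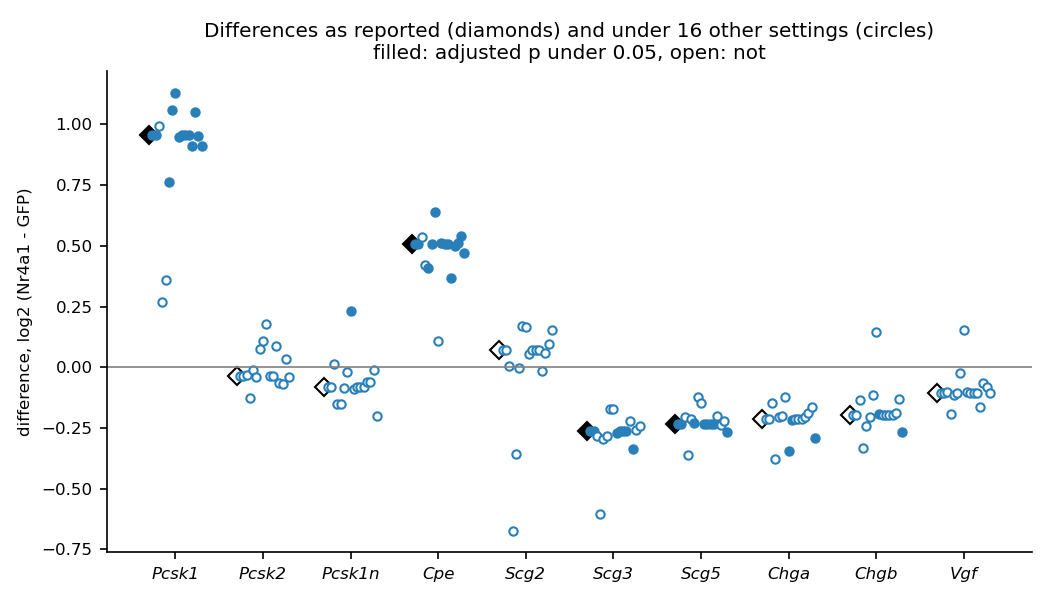
Difference on the log2 scale, Nr4a1-labelled minus GFP-labelled arrays, for each gene as reported (black diamonds) and under 16 other settings (blue circles), filled where the adjusted p is under 0.05. Pcsk1 ranges from 0.27 to 1.13 and Cpe from 0.11 to 0.64, all above 0, while Pcsk2, Pcsk1n, Scg2, Chgb and Vgf have circles on both sides of 0.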

How the data were processed

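RNA was measured on 8 Agilent mouse expression arrays with 2 colours. Per the file headers, Agilent Feature Extraction 11.0.1.1 gave each spot median signal and local background intensities on a linear scale, and log10 ratios of Cy5 over Cy3 from processed signals. Feature Extraction and limma are also listed in the submitters' processing notes, with no version. The deposited value table of the authors holds log2 ratios of 24275 probes, whose scale and direction were found from the scanner values (correlation 0.998 to 1.00, slopes 0.992 to 1.008). Its centring is not stated, and its column medians were 0.024 to 0.0312.

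From the intensities, spots with a non-uniform background were left out on their array, background was corrected by normexp (offset 50) and ratios were normalised by loess (span 0.3). Outlier spots were dropped and spots of a probe averaged. The filter kept features whose Cy5 passed the software's background test on at least 4 arrays, with 3 values per group, with the brightest probe standing for a gene. Accessions were named through RefSeq (GRCm38.p6), which matched 26581 probes and left 12848 without a symbol. Differences are from a two-sided limma fit (version 3.58.1, under R 4.3.3, moderated by eBayes) that holds the pair tag as a block, and p-values were adjusted by Benjamini-Hochberg over the 21113 features. The fit was also run on simulated data that held a pair effect and independent noise but no slide effect. That run therefore says nothing about the slides.

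The pair tags of the labels set the pairing, and each pair is called here by its replicate number. Deviations of paired arrays from their group means correlated at -0.104, 0.276, -0.016 and 0.425 in replicates 1 to 4. No source says that replicates are separate cultures, so p-values measure the spread between these arrays, which may be technical, and the number of arrays limits the precision. All 10 members are named, with the 2 called genes of smallest adjusted p in each other pathway list, Arc and Fos, the 5 genes nearest to Pcsk1 (of which 1 is not reported here), and genes that spell out a count of 5 or fewer. Furin was named after its value was seen, as were the cell markers below background. Members and lists were chosen with earlier results of these data known. Alternatives covered background correction, normalisation, filters, probes, blocks, channels and left-out replicates, and the reading of Cy3 alone was added after seeing the data.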

Additional observations from a re-analysis of the deposited data

Results flagged for a closer look

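Of 39 groups of 4 values checked, 2 had a highest or lowest value far from the other 3, by Dixon's test of the gap to the nearest value over the group's range. Chance flags about 1 in 20 such groups. In the second Pcsk2 probe, replicate 4 had a pair difference of 0.82 on the log2 scale (gap 0.962 of the range), against -0.015 to 0.016 in the other pairs. In Scg5, replicate 4 had a log2 ratio of 4.90 among the Nr4a1-labelled arrays (gap 0.916 of the range), against 4.66 to 4.68 on the other 3. Replicate 4 is also the only pair of batch 2 and, on its Nr4a1-labelled side, the only array of slide 3.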

How the results depend on the processing

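Over 16 distinct other settings, Pcsk1, Cpe, Scg3, Scg5 and Chga kept their direction. Pcsk2 turned in 5, Scg2 in 4, Pcsk1n in 2 and Chgb and Vgf in 1 each, and the causes were not tested. No direction could turn where only the block was left out or set to batch, or where only the filter changed. Values are log2 differences. With Cy5 alone, Chga was -0.34, Chgb 0.15, Cpe 0.11, Pcsk1n 0.23, Pcsk2 0.11, Scg3 -0.17, Scg5 -0.15 and Vgf 0.15, and 1 member was called lower. With all spots in the background correction, Pcsk1 was 0.27, Cpe 0.42, Scg2 -0.67, Scg3 -0.60 and Scg5 -0.36, with 0 members called and 130 features higher and 98 lower. With the Agilent log ratio, Pcsk1 was 0.36, Scg2 -0.36, Scg3 -0.30 and Scg5 -0.21, with 1 member higher, 0 lower, and 1508 features higher and 1350 lower. With slide as a random block, Pcsk1 was 0.99, Cpe 0.54, Scg3 -0.28, Scg5 -0.21 and Pcsk1n 0.015, with 0 members called and 8 features higher and 4 lower. Median centring in place of loess gave Pcsk2 0.075, Scg3 -0.17 and Scg5 -0.12, with 0 members lower and 3463 features higher and 1264 lower. The authors' value table gave Chga -0.22, Chgb -0.19 and Pcsk2 0.18, with 4 members lower. That table holds fewer probes, so another probe can stand for a gene there. Its Pcsk2 value lay nearer the second Pcsk2 probe (0.21 ± 0.13) than the brighter one (-0.04 ± 0.07). It may therefore reflect a change of probe, and which probe it came from was not checked. An offset of 10 gave Scg2 -0.0011 and Scg3 -0.28, with 1 member lower. The mean over probes gave Pcsk2 0.086. Batch 1 alone, which is the same fit as leaving out replicate 4, gave Chga -0.29, Chgb -0.27 and Scg3 -0.24. Leaving out each pair in turn gave -0.29 to -0.16 for Chga, -0.27 to -0.13 for Chgb, -0.068 to 0.033 for Pcsk2, -0.015 to 0.15 for Scg2, -0.34 to -0.22 for Scg3 and -0.26 to -0.20 for Scg5, with 0 to 3 members called lower and 1783 to 2597 features higher. Without the replicate block for the pair, 2 members were called higher and 2 lower, with 2349 features higher and 2128 lower, and the block changed the call of no member. Quantile normalisation of average intensity leaves ratios as they are and was not run.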
